A study of Mus musculus with 56 samples.

Results

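The genes described here are the GATA factors and the partners with which they run red cell and platelet development. They are the 10 genes Gata1, Gata2, Gata3, Zfpm1, Klf1, Tal1, Gfi1b, Lmo2, Ldb1 and Nfe2, chosen by name and found by their Entrez IDs among the 24424 genes of an RNA-seq expression table. All 10 were in the table and passed the filter on low values (4 or more on the table's log2 scale, averaged over libraries), which left 12133 genes to test. RNA was measured in sorted bone marrow progenitors of C57BL/6 mice. The mutant mice were Tet2-/-Flt3ITD, called T2F3: they lacked Tet2, which oxidizes methylated cytosine, and carried an internal tandem duplication of the receptor tyrosine kinase gene Flt3. The other mice were wild type (WT). The groups were T2F3 multipotent progenitors (MPP, 3 libraries), WT MPP (4 libraries), T2F3 granulocyte-macrophage progenitors (GMP, 3 libraries) and WT GMP (5 libraries). MPP were sorted as lineage-negative Sca-1+ c-Kit+ cells that were CD48+ and CD150-, and GMP as lineage-negative Sca-1- c-Kit+ cells that were CD34+ and CD16/32+. The age of the mice and any agent given to them are not given in the sources used here, nor is it stated which cells lost Tet2 or whether each library is a separate animal, so the p-values are about differences among libraries, which may be technical.

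GATA1, GATA2 and GATA3 are zinc finger proteins that bind the DNA letters GATA. GATA2 acts in stem cells, early progenitors and mast cells, GATA1 takes over as cells become erythroid, megakaryocytic, eosinophilic or mast cells, and GATA3 is best known from T cells and innate lymphoid cells. In the erythroid line GATA1 binds DNA next to TAL1, held together by LMO2 and LDB1, while FOG1 (encoded by Zfpm1) binds GATA1 itself. KLF1, GFI1B and the p45 subunit of NF-E2 (encoded by Nfe2) act beside this complex on red cell and platelet genes. Neither sorting gate selects committed erythroid or megakaryocytic cells.

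Genes of the sorting gates followed the gates in part. Kit averaged 11.38 in T2F3 MPP, 12.30 in WT MPP, 11.29 in T2F3 GMP and 11.52 in WT GMP, and Slamf1, which encodes the CD150 that the MPP gate leaves out, stayed between 1.94 and 2.95 in the group means. Cd48, for which MPP were sorted positive, averaged 11.48 in T2F3 MPP, 9.95 in WT MPP, 10.78 in T2F3 GMP and 10.10 in WT GMP, and so was no higher in WT MPP than in GMP. Cd34, for which GMP were sorted positive, averaged 12.44 in T2F3 MPP, 12.58 in WT MPP, 11.42 in T2F3 GMP and 11.47 in WT GMP. Ly6a, one of the genes of the Sca antigens, averaged 8.32 in T2F3 MPP, 7.70 in WT MPP, 7.61 in T2F3 GMP and 7.12 in WT GMP. Elane, a neutrophil granule protease of GMP, averaged 15.52 in T2F3 GMP and 15.63 in WT GMP, and 13.31 in T2F3 MPP and 13.36 in WT MPP. Of 9 tested markers of lineages outside the gates, 7 fell and 0 rose in T2F3 MPP (0 unadjusted), where 19.6% of all tested genes were called lower, and 4 fell and 0 rose in T2F3 GMP (0 unadjusted), against 6.04%. Of the 9, 3 had both T2F3 means under the filter's minimum of 4 and passed it through WT, so these counts are a description only. The summed level of all 11 genes of this list (log2 of the summed values) ran from 10.04 to 10.39 in T2F3 MPP and from 11.11 to 11.42 in WT MPP. In GMP it ran from 11.30 to 11.69 in T2F3 and from 11.25 to 11.96 in WT. This sum mostly follows Itgam and Itga2b, which had the largest means of the list in every group. Itgam averaged 9.36 in T2F3 MPP, 10.06 in WT MPP, 11.21 in T2F3 GMP and 10.93 in WT GMP. Such sums, here and for the lists below, say little of the genes with smaller values. The part of these genes in the results was not tested. All values are deposited log2 values, scaled between libraries by the authors and drawn towards each gene's mean when reads are few, so the differences of weakly expressed genes are understated and levels cannot be set against each other between genes. Tet2 read at 9.75 in T2F3 MPP and 9.79 in WT MPP, and at 10.12 in T2F3 GMP and 10.06 in WT GMP, and a value for the whole gene is no check on a partial deletion. The libraries T2F3 GMP 2 and WT GMP 1 stood apart in ribosomal protein genes, whose mean lay 0.77 and 1.01 (log2, 71 genes) above the other libraries of their groups. In MPP this mean lay apart between genotypes, from 13.03 to 13.06 in T2F3 and from 12.30 to 12.39 in WT. In GMP it overlapped, from 12.68 to 13.60 in T2F3 and from 12.52 to 13.64 in WT. No libraries were identical, and read depth is unknown because the table holds no counts.

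Gata1 and Gata2 were far lower in both T2F3 populations than in the matching WT populations. Gata1 read 4.85, 4.90 and 4.62 in T2F3 MPP, against 7.38, 7.31, 7.21 and 7.05 in WT MPP. In GMP it read 5.00, 4.98 and 4.88 in T2F3, against 6.70, 7.16, 6.29, 6.33 and 6.46 in WT. The T2F3 libraries of either population thus sat in a narrow band below every WT library. The difference, T2F3 minus WT, was -2.45 ± 0.17 in MPP (log2, limma SE, adjusted p = 5.1e-08), which is a 5.46-fold lower level, and -1.63 ± 0.16 in GMP (adjusted p = 2.73e-06), a 3.10-fold lower level. In a sorted bulk sample, fewer cells that carry an RNA and less of that RNA in each cell cannot be told apart.

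Gata2, the GATA factor of early progenitors, read 8.61, 7.84 and 7.92 in T2F3 MPP, against 9.93, 9.87, 9.60 and 10.05 in WT MPP. In GMP the values were 7.62, 7.28 and 7.26 in T2F3, against 9.24, 9.83, 9.28, 9.44 and 9.53 in WT. Every T2F3 library was again below every WT library of its population. Gata2 fell by 1.74 ± 0.18 in T2F3 MPP (log2, SE, adjusted p = 1.98e-06) and fell by 2.08 ± 0.17 in T2F3 GMP (adjusted p = 3.37e-07). In the GMP comparison it had the smallest p of the 10 genes and ranked 47 among the 12133 tested, while in MPP that place was Gata1's, at rank 34.

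Gata3, unlike these, did not pass the genotype test in either population. It read 5.74, 5.53 and 5.96 in T2F3 MPP and between 6.02 and 6.25 in WT MPP, so these groups lay apart by a small gap, and the difference of -0.37 ± 0.16 (SE) missed the threshold (adjusted p = 0.0789). The adjusted p ran from 0.0196 to 0.287 over the alternatives: it was 0.046 with each library centred on its median, 0.0268 with quantile normalization and 0.049 without T2F3 GMP 2, and it was highest without T2F3 MPP 2. In GMP, Gata3 was low in both genotypes, from 3.53 to 4.18 in T2F3 and from 3.56 to 4.01 in WT, and the groups overlapped (0.03 ± 0.15, 95% interval -0.30 to 0.35, adjusted p = 0.932).

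**Figure D1:**
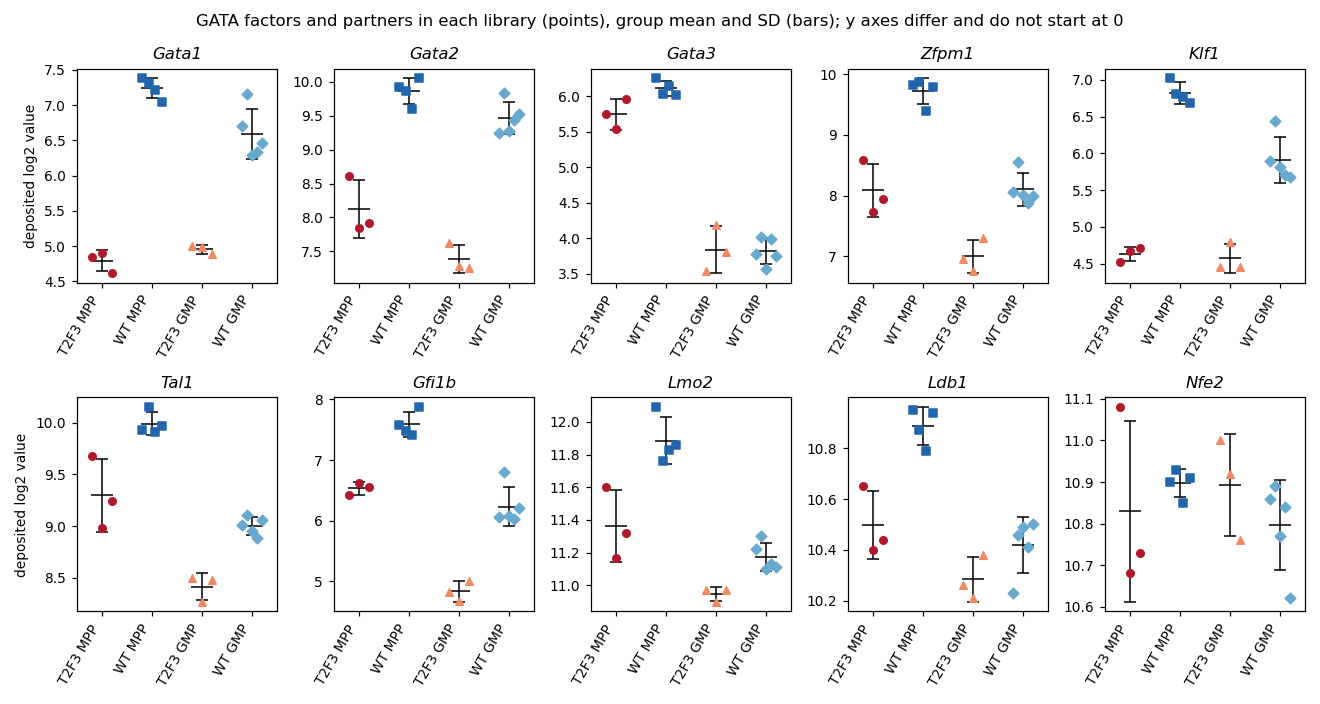
Deposited log2 value (y axis, a separate scale for each gene) of the 10 genes in the 15 libraries, by group (x axis). Points are libraries and bars the group mean and SD. Gata1 and Klf1 form a low band from 4.46 to 5.00 in all T2F3 libraries, while Nfe2 overlaps in all groups.

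Klf1, an erythroid zinc finger activator of globin and membrane genes, was low in the same libraries as Gata1. It read 4.52, 4.67 and 4.71 in T2F3 MPP, against 7.02, 6.81, 6.77 and 6.68 in WT MPP, and 4.46, 4.80 and 4.46 in T2F3 GMP, against 5.89, 6.44, 5.81, 5.71 and 5.68 in WT GMP. No T2F3 library reached the lowest WT library. The differences were -2.19 ± 0.17 in MPP (SE, adjusted p = 1.08e-07) and -1.33 ± 0.16 in GMP (adjusted p = 1.61e-05). Among the members, Gata1 and Klf1 had one of the most similar profiles over the 15 libraries, with a root mean square difference of 0.23 after each gene was centred on its own mean, whereas Gata1 itself spread by 1.03 around its mean. Lmo2 and Ldb1 were closer (0.16) but varied much less, by 0.36 and 0.24.

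Zfpm1 encodes FOG1, the cofactor that binds GATA1 and GATA2. Its values were 8.58, 7.73 and 7.94 in T2F3 MPP, against 9.82, 9.87, 9.40 and 9.79 in WT MPP, and 6.95, 6.75 and 7.29 in T2F3 GMP, against 8.06, 8.56, 8.01, 7.87 and 8.00 in WT GMP. Both pairs of groups lay apart. Zfpm1 fell by 1.64 ± 0.20 in T2F3 MPP (SE, adjusted p = 1.2e-05) and fell by 1.10 ± 0.19 in T2F3 GMP (adjusted p = 6.27e-04). The T2F3 MPP libraries and the WT GMP libraries overlapped in Zfpm1, at means of 8.08 and 8.10.

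The start regions of 4 of these genes are printed because Gata1 and Klf1, and likewise Gfi1b and Zfpm1 (root mean square difference 0.33), had similar profiles. They come from RefSeq (GRCm38.p6, which is not the submitters' build) and span 250 bases before to 50 after the gene's start. The table held 12 such regions for 8 of the 10 genes. Capitals mark a GATA motif (A or T, then GATA, then A or G), a CACCC-type motif of KLF factors (a pair of C, then A or C, then C, then A or G, then CCC) or the E-box CAGATG that TAL1 dimers can bind, all searched on both strands.
Gata1 (chrX:7967861-7968160, minus strand): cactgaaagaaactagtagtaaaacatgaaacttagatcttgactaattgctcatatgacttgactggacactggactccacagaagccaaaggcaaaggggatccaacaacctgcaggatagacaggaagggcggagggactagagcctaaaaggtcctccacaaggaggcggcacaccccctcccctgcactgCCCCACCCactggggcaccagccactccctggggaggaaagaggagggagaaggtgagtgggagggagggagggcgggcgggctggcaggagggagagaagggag
Klf1 (chr8:84901732-84902031, plus strand): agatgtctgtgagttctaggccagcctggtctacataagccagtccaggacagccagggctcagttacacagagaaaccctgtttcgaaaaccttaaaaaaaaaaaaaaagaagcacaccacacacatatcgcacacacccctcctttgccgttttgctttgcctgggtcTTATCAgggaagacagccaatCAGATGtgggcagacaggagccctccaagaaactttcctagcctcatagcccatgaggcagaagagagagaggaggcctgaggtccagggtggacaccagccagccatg
Gfi1b (chr2:28621933-28622232, minus strand): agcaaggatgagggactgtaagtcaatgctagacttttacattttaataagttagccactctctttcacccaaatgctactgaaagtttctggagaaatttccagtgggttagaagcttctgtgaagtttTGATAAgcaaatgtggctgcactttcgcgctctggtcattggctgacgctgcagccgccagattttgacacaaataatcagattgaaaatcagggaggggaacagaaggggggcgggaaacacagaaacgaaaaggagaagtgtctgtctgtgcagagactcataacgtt
Zfpm1 (chr8:122281891-122282190, plus strand): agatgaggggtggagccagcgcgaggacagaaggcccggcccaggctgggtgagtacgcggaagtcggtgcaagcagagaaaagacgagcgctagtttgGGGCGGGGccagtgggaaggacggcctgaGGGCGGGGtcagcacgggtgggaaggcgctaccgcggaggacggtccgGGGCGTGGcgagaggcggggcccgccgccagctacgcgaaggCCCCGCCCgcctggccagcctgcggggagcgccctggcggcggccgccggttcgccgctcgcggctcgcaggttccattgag

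Counted from the start, with the first transcribed base as 1, the Gata1 region held 1 CACCC-type motif at -55 to -48 and no GATA motif. The Klf1 region held a GATA motif, read on the other strand, at -80 to -75 and the E-box at -59 to -54. The Gfi1b region held a GATA motif at -120 to -115, and the Zfpm1 region had 4 CACCC-type motifs and a GC content of 73.7%, against 44.3% for Gfi1b. Of the 12 regions, 5 held a GATA motif, 5 a CACCC-type motif and 2 the E-box, and no 2 of these motifs overlapped in the 4 regions printed. Over all 32851 RefSeq start regions of the same length, 29.8% held a GATA motif, 29.7% a CACCC-type motif and 17.2% the E-box, so such matches are common. A match describes letters only, and distant enhancers are outside these windows.

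Tal1, Lmo2 and Ldb1, the partners that sit with GATA1 on DNA, had smaller differences between genotypes. Tal1, a basic helix-loop-helix factor of blood stem cells and the erythroid line, read 9.68, 8.98 and 9.24 in T2F3 MPP, against 9.93, 10.15, 9.91 and 9.97 in WT MPP, and 8.50, 8.27 and 8.48 in T2F3 GMP, against values between 8.89 and 9.11 in WT GMP. The groups lay apart in both populations. Tal1 fell by 0.69 ± 0.13 in T2F3 MPP (SE, adjusted p = 7.78e-04) and fell by 0.59 ± 0.12 in T2F3 GMP (adjusted p = 0.00363).

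Lmo2, the LIM-only adaptor between TAL1 and LDB1, ranged from 11.17 to 11.60 in T2F3 MPP and from 11.76 to 12.09 in WT MPP, and it fell by 0.52 ± 0.11 (SE, adjusted p = 0.0019). In GMP it ranged from 10.90 to 10.97 in T2F3 and from 11.10 to 11.30 in WT; these groups also lay apart, but the difference of -0.23 ± 0.10 did not pass (adjusted p = 0.157). Ldb1, which dimerizes and so can link distant sites, fell by 0.39 ± 0.09 in T2F3 MPP (adjusted p = 0.00433). In GMP its groups overlapped and the difference was -0.13 ± 0.09 (95% interval -0.32 to 0.06, adjusted p = 0.343).

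Gfi1b, a repressor needed for red cells and platelets, read 6.42, 6.62 and 6.56 in T2F3 MPP, against 7.58, 7.47, 7.42 and 7.87 in WT MPP. In GMP it read 4.83, 4.67 and 5.01 in T2F3, against 6.06, 6.80, 6.07, 6.03 and 6.21 in WT. Again no T2F3 library reached a WT library of its population. The differences were -1.05 ± 0.17 in MPP (SE, adjusted p = 2.37e-04) and -1.40 ± 0.16 in GMP (adjusted p = 1.33e-05).

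Nfe2 was the one member with overlapping groups in every comparison. It ranged from 10.68 to 11.08 in T2F3 MPP and from 10.85 to 10.93 in WT MPP, and from 10.76 to 11.00 in T2F3 GMP and from 10.62 to 10.89 in WT GMP. Neither difference passed, at -0.07 ± 0.10 in MPP (SE, 95% interval -0.29 to 0.15, adjusted p = 0.617) and 0.10 ± 0.10 in GMP (95% interval -0.11 to 0.31, adjusted p = 0.529). The MPP value became 0.01 without T2F3 MPP 2.

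**Figure D2:**
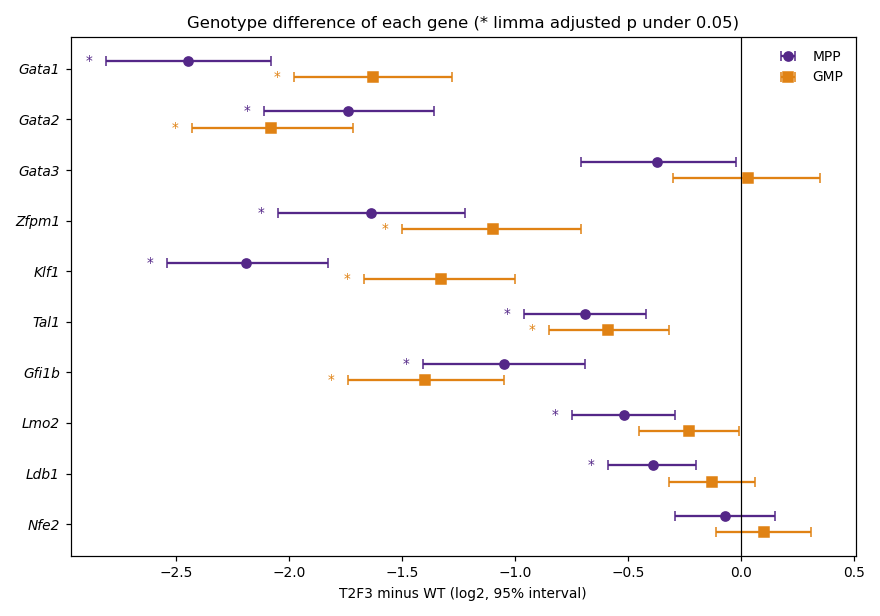
T2F3 minus WT difference (x axis, log2) of each gene in MPP (circles) and GMP (squares) with its 95% interval; stars mark a limma adjusted p under 0.05. Gata1 (-2.45) and Klf1 (-2.19) have the lowest values in MPP, Gata2 (-2.08) in GMP, and the intervals of Nfe2 span 0.

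Counted together, 8 of the 10 genes fell in T2F3 MPP and 0 rose (0 also at an unadjusted p under 0.05 with limma), where 19.6% of all tested genes were called lower and 20.7% higher. The median difference of the 10 was -0.87, against -0.02 over all tested genes, whose 5th and 95th percentiles were -0.61 and 0.87. In 9 of the 10, all T2F3 libraries lay below all WT libraries, as did 26.0% of tested genes. In T2F3 GMP, 6 of the 10 fell and 0 rose (0 unadjusted), against 6.04% of tested genes called lower and 9.25% higher, with a median of -0.84 and an all-gene median of -0.02. There 7 of the 10 lay wholly below WT, against 7.49% of tested genes. Without T2F3 GMP 2 and WT GMP 1, the pair with high ribosomal protein genes, 6 fell in GMP and 9 in MPP, where Gata3 joined (adjusted p = 0.0435).

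Between MPP and GMP, most of these genes were lower in GMP in both genotypes. In T2F3 cells this step gave no call for Gata1 or Klf1. Their GMP minus MPP differences were 0.16 ± 0.18 for Gata1 (SE, 95% interval -0.23 to 0.55, adjusted p = 0.613) and -0.06 ± 0.18 for Klf1 (95% interval -0.43 to 0.32, adjusted p = 0.876), and the groups overlapped. At such low values the shrinkage of the table limits what a fall could show. Gata3 fell by 1.90 ± 0.17 (adjusted p = 6.17e-07), Gfi1b fell by 1.69 ± 0.18 (adjusted p = 4.02e-06), Zfpm1 fell by 1.09 ± 0.21 (adjusted p = 0.00104) and Tal1 fell by 0.88 ± 0.14 (adjusted p = 1.49e-04). Gata3 passed the filter on low values only through MPP, so its fall and its place in the count below are a description only. Gata2 (-0.74 ± 0.19, adjusted p = 0.00929) and Lmo2 (-0.42 ± 0.12, adjusted p = 0.0155) also fell, but without T2F3 MPP 1, the library highest in both within its group, their adjusted p was 0.056 and 0.0847. Ldb1 (-0.21 ± 0.10, adjusted p = 0.149) and Nfe2 (0.07 ± 0.11, adjusted p = 0.746) did not pass. In all, 6 of 10 fell and 0 rose (0 unadjusted), against 11.7% of tested genes called lower and 10.5% higher, with 7 of 10 groups wholly lower, against 17.4%.

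In WT cells, 9 of the 10 fell in GMP and 0 rose (0 unadjusted), against 23.2% of tested genes called lower and 25.4% higher, and in 7 of them the groups did not overlap, against 20.4%. Gata3 fell the most, by 2.30 ± 0.14 (SE, adjusted p = 3.39e-09), which is 4.91-fold. Its means in T2F3 GMP (3.84) and WT GMP (3.81) were under the filter's minimum of 4, so it passed that filter through MPP. Its fall and its place in the counts of this step are therefore a description only. Zfpm1 (-1.62 ± 0.17), Gfi1b (-1.35 ± 0.15), Tal1 (-0.99 ± 0.11) and Klf1 (-0.91 ± 0.15) followed, all with adjusted p of 8.2e-05 or smaller. Smaller falls were those of Lmo2 (-0.71 ± 0.10), Gata1 (-0.65 ± 0.15) and Ldb1 (-0.47 ± 0.08). Gata2 only just passed, at -0.40 ± 0.16 (adjusted p = 0.0446), with overlapping groups; it missed the threshold when any of WT MPP 1, 3 or 5 or WT GMP 1, 3, 4 or 5 was left out (adjusted p from 0.0568 to 0.125). Nfe2 did not pass (-0.10 ± 0.09, 95% interval -0.29 to 0.09, adjusted p = 0.371).

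**Figure D3:**
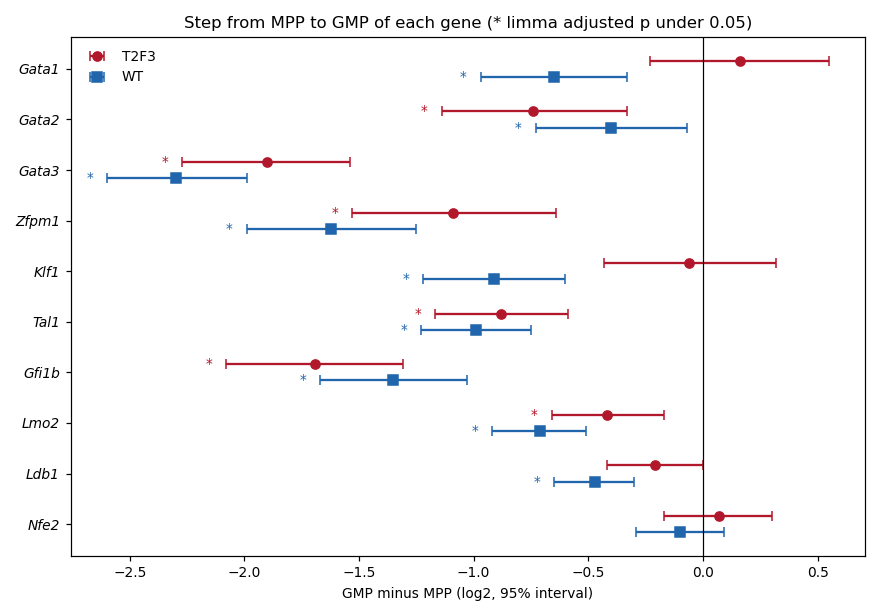
GMP minus MPP difference (x axis, log2) of each gene in T2F3 (circles) and WT (squares) with its 95% interval; stars mark a limma adjusted p under 0.05. Gata3 has the lowest value in both genotypes (-1.90 and -2.30), while Gata1 and Klf1 have no star in T2F3 and a star in WT.

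The difference between genotypes in this step is the same quantity as the difference between populations in the genotype effect, and it was tested directly. For Gata1 the genotype effect was 0.81 ± 0.24 less negative in GMP than in MPP (log2, SE, 95% interval 0.31 to 1.32), with a limma adjusted p of 0.0866. For Klf1 it was 0.85 ± 0.23 less negative (95% interval 0.37 to 1.34, adjusted p = 0.0624). Thus 0 of 10 genes passed, against 2.26% of tested genes (1.38% higher and 0.882% lower), and at an unadjusted p under 0.05 these 2 did, where 9.76% of all tested genes were higher at that level. The adjusted p ran from 0.00464 to 0.248 for Gata1 and from 0.0105 to 0.139 for Klf1 over the alternatives. Gata1 passed with quantile normalization (0.87, adjusted p = 0.0419) and without T2F3 GMP 2 and WT GMP 1 (0.83, adjusted p = 0.0483), and Klf1 with median centring (0.91, adjusted p = 0.0474). Without WT GMP 2, both passed, Gata1 at 0.96 (adjusted p = 0.0154) and Klf1 at 0.99 (adjusted p = 0.0119). Gata2 and Gfi1b had the opposite sign (-0.34 ± 0.25 and -0.34 ± 0.24), with adjusted p of 0.456 and 0.431.

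The order of the 4 groups differed between the genes, and WT MPP had the highest mean for each of the 10. For Gata1, Gata2, Zfpm1 and Klf1 the next group was WT GMP, for Gata3, Tal1, Gfi1b, Lmo2 and Ldb1 it was T2F3 MPP, and for Nfe2 it was T2F3 GMP. T2F3 GMP had the lowest mean for Gata2, Zfpm1, Klf1, Tal1, Gfi1b, Lmo2 and Ldb1, although for Klf1 its libraries overlapped T2F3 MPP and for Ldb1 they overlapped WT GMP. T2F3 MPP and WT GMP were neighbours in the order of Zfpm1, Tal1, Gfi1b, Lmo2, Ldb1 and Nfe2 and overlapped in each of these genes. They were also neighbours in Gata2 and Klf1, where all WT GMP libraries lay above T2F3 MPP. In Gata1, T2F3 GMP overlapped T2F3 MPP, and WT GMP overlapped WT MPP through WT GMP 2 alone.

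In WT GMP 2, all 10 genes lay above the mean of the other WT GMP libraries (median 0.35 on the log2 scale). Of 29 tested erythroid genes 25 were also higher in it (median 0.52), and of 17 megakaryocyte genes 14 were (median 0.31). Every member except Ldb1 had its highest WT GMP value in this library. In T2F3 MPP 1, 8 of the 10 genes lay above the other T2F3 MPP libraries (median 0.29), and 0 of 12 dendritic cell genes did (median -0.69). WT MPP 1 was alike, with 8 of the 10 genes above the other WT MPP libraries (median 0.11) and 0 of 12 dendritic cell genes (median -0.78). The part of such marker shifts in the results was not tested.

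The balance between Gata1 and its rivals was read within each library, as a log2 difference of 2 genes from which library scaling drops out. Spi1 encodes PU.1, the myeloid factor that binds GATA1 and opposes it. Spi1 minus Gata1 was 5.31, 5.63 and 5.87 in T2F3 MPP, against 2.66, 2.76, 2.69 and 3.25 in WT MPP, and 6.03, 5.66 and 6.02 in T2F3 GMP, against 3.97, 3.93, 4.71, 4.66 and 4.53 in WT GMP. All T2F3 libraries were above all WT libraries. The shift was 2.76 in MPP (exact permutation p = 0.0286, two-sided, the smallest that 3 against 4 libraries allow). In GMP it was 1.55 (exact permutation p = 0.0179, the smallest for 3 against 5). Both had an adjusted p of 0.0571 over the 4 such tests, so neither passed. Since each p was already the smallest possible, missing the threshold says nothing of the size of the shift. Spi1 itself averaged 10.39 ± 0.20 in T2F3 MPP and 10.08 ± 0.17 in WT MPP (SD, n = 3 and 4), and 10.86 ± 0.20 in T2F3 GMP and 10.95 ± 0.16 in WT GMP (SD, n = 3 and 5).

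Gata2 minus Gata1 differed between genotypes with opposite signs in the 2 populations, but neither difference passed. It averaged 3.33 ± 0.41 in T2F3 MPP and 2.62 ± 0.26 in WT MPP (SD, n = 3 and 4), a difference of 0.71, and 2.43 ± 0.17 in T2F3 GMP and 2.88 ± 0.26 in WT GMP (SD, n = 3 and 5), a difference of -0.44. The groups overlapped in both populations (exact permutation p = 0.0857 in MPP and 0.0536 in GMP, adjusted 0.0857 and 0.0714). The change between populations in this balance was not tested.

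**Figure D4:**
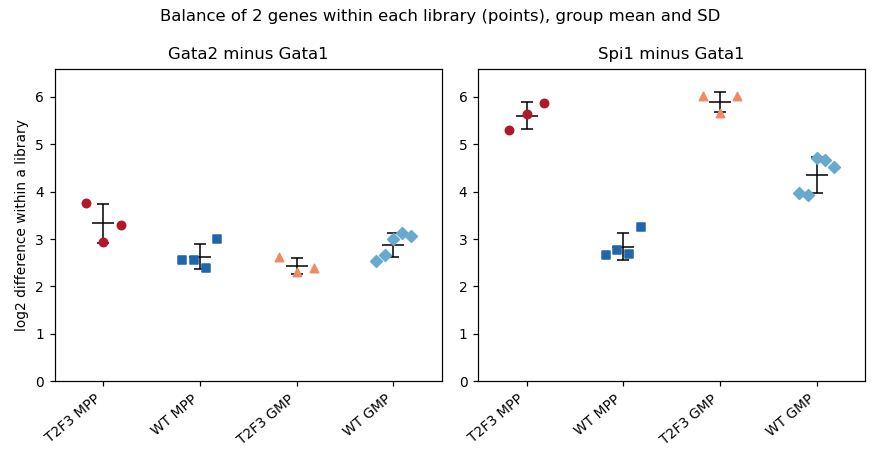
Log2 difference of 2 genes within each library (y axis) by group (x axis): Gata2 minus Gata1 on the left, Spi1 minus Gata1 on the right, with group mean and SD. T2F3 libraries lie between 5.31 and 6.03 for Spi1 minus Gata1, above WT MPP (2.66 to 3.25) and WT GMP (3.93 to 4.71).

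Other parts of the complex and its regulators were counted in a list of 30 genes. In T2F3 MPP 17 of these fell and 1 rose (median -0.31, against -0.02 over all tested genes), where 19.6% of tested genes were called lower and 20.7% higher, led by Sox6, a repressor of embryonic globin genes that fell by 2.41 ± 0.20 (SE, adjusted p = 2.87e-07), with Bcl11a (-0.60 ± 0.09) and Myb (-0.66 ± 0.10). In T2F3 GMP, where 6.04% were called lower and 9.25% higher, 5 fell and 1 rose (median -0.14, against -0.02), among them Gfi1, the myeloid and lymphoid relative of Gfi1b (-0.63 ± 0.10, adjusted p = 4.22e-04), Sox6 (-0.97 ± 0.19) and Myb (-0.47 ± 0.10). The genotype effect on Sox6 differed between the populations, by 1.44 ± 0.28 (GMP minus MPP, adjusted p = 0.0155). Among 10 factors of the myeloid side, some of which oppose GATA1, 4 rose and 1 fell in T2F3 MPP, and 3 rose and 1 fell in T2F3 GMP (medians 0.26 and 0.18, against -0.02 over all tested genes in each), beside 20.7% of tested genes called higher in MPP and 9.25% in GMP. Id2, an inhibitor of E proteins, rose by 2.31 ± 0.22 in MPP (adjusted p = 8.54e-07) and by 1.60 ± 0.21 in GMP, and Klf2 rose by 1.00 ± 0.15 in MPP and by 1.05 ± 0.14 in GMP. A few genes stand in more than 1 list, such as Gfi1, Id2, Itga2b and Flt3.

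Of 29 tested erythroid genes known to depend on GATA1 or to mark the red cell line, 22 fell and 2 rose in T2F3 MPP (median -1.58), and 19 fell and 1 rose in T2F3 GMP (median -0.70), where all tested genes had a median of -0.02 in each and 19.6% of them were called lower in MPP and 6.04% in GMP. In 7 of the 29, Kel among them, both T2F3 means were under the filter's minimum of 4, so these passed the filter through WT. The counts and medians over tested genes, and the differences given for Kel, are therefore a description only. Kel, a red cell blood group protein, fell by 2.41 ± 0.15 in MPP (SE, adjusted p = 1.22e-08) and fell by 1.48 ± 0.14 in GMP (adjusted p = 1.7e-06). Ank1, the membrane skeleton anchor, fell by 2.53 ± 0.17 in MPP and fell by 1.33 ± 0.16 in GMP, and Aqp1, the red cell water channel, fell by 1.77 ± 0.19 in GMP. The genotype effect differed between populations in 8 of the 29, all less negative in GMP and 0 more negative (1 unadjusted), against 1.38% of tested genes called higher. Add2 differed by 1.62 ± 0.25 (adjusted p = 0.00306). That count is also a description only, since 7 of the 29 passed the filter through WT. Kel, for example, averaged 3.80 in T2F3 MPP and 3.79 in T2F3 GMP, against 6.20 in WT MPP and 5.27 in WT GMP. At such low T2F3 values the shrinkage of the table limits what a difference could show. The summed level of the list, as log2 of the summed values, ran from 12.69 to 12.78 in T2F3 MPP and from 13.15 to 13.39 in WT MPP, and from 12.61 to 12.73 in T2F3 GMP and from 12.86 to 13.14 in WT GMP. None of its 34 genes was at 0 in all libraries.

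Of 17 tested megakaryocyte genes, 6 fell and 4 rose in T2F3 MPP (median -0.21), where 19.6% of all tested genes were called lower and 20.7% higher, so the share that rose was near that of all genes. In T2F3 GMP 7 fell and 2 rose (median -0.60), against 6.04% lower and 9.25% higher. Of the 17, 1 passed the filter through WT, so these counts and medians are a description only. Itga2b, which encodes the platelet integrin CD41, fell by 1.64 ± 0.19 in MPP (SE, adjusted p = 7.53e-06) and fell by 1.52 ± 0.18 in GMP (adjusted p = 1.51e-05), and Mmrn1, a platelet granule protein, fell by 2.29 ± 0.19 in MPP. Plek, a platelet and leukocyte signalling protein, rose by 0.70 ± 0.11 in GMP. The summed level of the list overlapped between genotypes, from 12.31 to 12.33 in T2F3 MPP and 12.20 to 12.47 in WT MPP, and from 11.74 to 12.00 in T2F3 GMP and 11.48 to 12.01 in WT GMP, and Gp6 was at 0 in all libraries.

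Most mast cell and basophil genes, on many of which GATA2 acts in those cells, fell in both populations. Of 14 tested, 10 fell and 1 rose in T2F3 MPP (median -0.94), and 8 fell and 0 rose in T2F3 GMP (0 unadjusted, median -1.12), where 19.6% of all tested genes were called lower in MPP and 6.04% in GMP. Of the 14, 2 passed the filter through WT, so these counts and medians are a description only. Slc45a3 fell by 1.68 ± 0.16 in MPP and fell by 2.35 ± 0.15 in GMP (SE, adjusted p = 1.1e-06 and 6.15e-08), and Ms4a2, a chain of the IgE receptor, fell by 1.63 ± 0.18 in MPP and fell by 2.15 ± 0.17 in GMP. Gzmb (GMP minus MPP effect -1.55 ± 0.25, adjusted p = 0.00476) and Mcpt8 (-1.89 ± 0.33, adjusted p = 0.00692) had a more negative genotype effect in GMP than in MPP by the test of the difference. In the WT step 11 of the 14 rose in GMP and 2 fell, against 25.4% of tested genes called higher and 23.2% lower. Gata2 only just passed as lower in that step (-0.40 ± 0.16, SE, limma adjusted p = 0.0446), with overlapping groups. The summed level ran from 13.89 to 14.24 in T2F3 GMP and from 14.32 to 14.81 in WT GMP, and Tpsab1 was at 0 in all libraries. Of 7 eosinophil genes, 2 fell and 2 rose in T2F3 MPP, near the shares of all tested genes (19.6% lower and 20.7% higher), and 3 fell and 0 rose (0 unadjusted) in T2F3 GMP (6.04% of all lower), where Epx, the eosinophil peroxidase, fell by 1.92 ± 0.24 (adjusted p = 2.52e-05).

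Of 13 T cell and innate lymphoid genes, the setting in which GATA3 is best known, 8 fell and 3 rose in T2F3 MPP (median -0.62), and 4 fell and 2 rose in T2F3 GMP (median -0.24). Of all tested genes, 19.6% were called lower and 20.7% higher in MPP, and 6.04% lower and 9.25% higher in GMP, so the 3 that rose in MPP are near the share of all genes. Zbtb16 fell by 1.40 ± 0.14 in MPP (SE, adjusted p = 1.84e-06), while Thy1 rose by 1.83 ± 0.16 in MPP and 1.53 ± 0.15 in GMP. In the WT step 10 of the 13 fell in GMP and 1 rose, against 23.2% of tested genes called lower and 25.4% higher, and Lck fell by 1.75 ± 0.13. Of the 13, 1 had both GMP means under the filter's minimum of 4, so it passed through MPP. The counts of this step are therefore a description only. Dendritic cell genes moved the other way from the GATA factors between genotypes: 11 of 12 rose in T2F3 MPP and 12 of 12 in T2F3 GMP, 0 fell in either (0 unadjusted), beside 20.7% of tested genes called higher in MPP and 9.25% in GMP, and their summed level ran from 15.40 to 16.23 in T2F3 MPP against 13.00 to 13.74 in WT MPP, and from 14.94 to 15.15 in T2F3 GMP against 12.00 to 12.30 in WT GMP. The 12 include Flt3, the gene altered in T2F3, which averaged 11.32 in T2F3 MPP and 11.38 in WT MPP. In GMP it rose by 1.28 ± 0.11 (SE, limma adjusted p = 8.23e-07). None of the 12 was at 0, and their part in the lower GATA factor values was not tested.

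**Figure D5:**
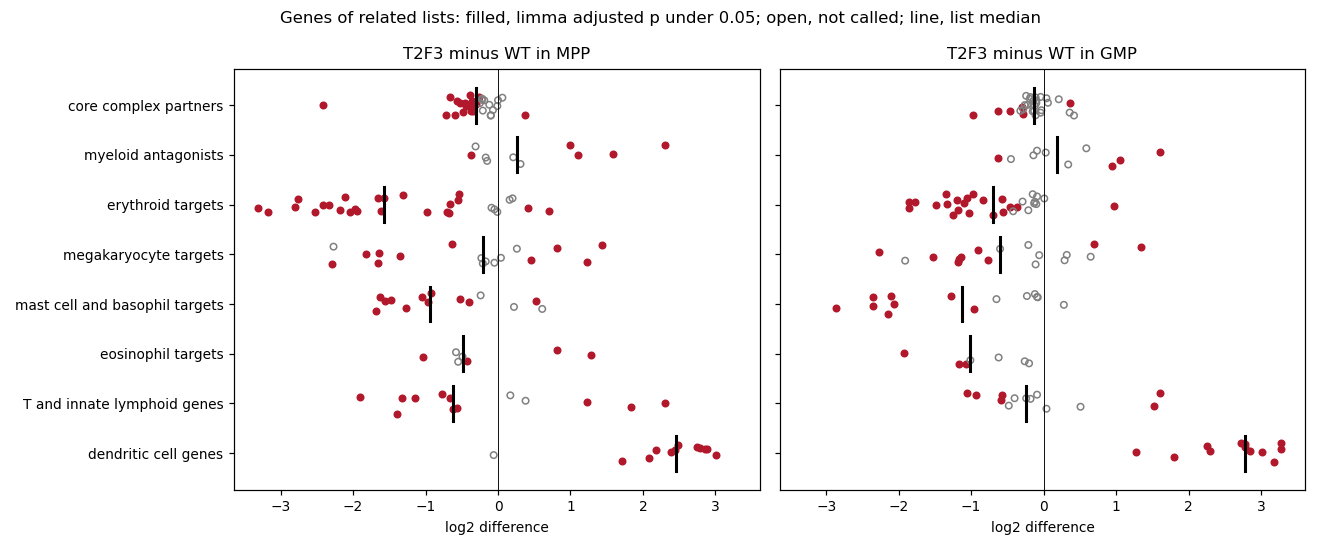
T2F3 minus WT difference (x axis, log2) of the tested genes of 8 lists (rows) in MPP (left) and GMP (right). Filled points passed a limma adjusted p of 0.05, open points did not, and lines mark list medians, such as -1.58 and -0.70 for erythroid genes.

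The genes with profiles nearest to each factor were found over the 15 libraries by the root mean square difference of centred log2 values, and they are given as a description. Nearest to Gata1 were Trib2 (0.19), the blood group gene Kel (0.23) and the lipid transporter gene Mfsd2b (0.25). Nearest to Klf1 were the erythropoietin receptor gene Epor (0.20), Ank1 (0.20) and Trib2 (0.20). Trib2, a pseudokinase gene, averaged 3.66 in T2F3 MPP, 6.27 in WT MPP, 3.62 in T2F3 GMP and 5.20 in WT GMP. Itga2b was nearest to Gata2 (0.23), ahead of Emid1 (0.34) and Clstn3 (0.40), with means of 8.12 in T2F3 MPP, 9.76 in WT MPP, 7.83 in T2F3 GMP and 9.35 in WT GMP. Gata3 lay nearest to genes of another kind, Emcn, an endothelial and stem cell sialomucin (0.18), Gimap1, a lymphocyte GTPase (0.22), and the potassium channel gene Kcnh2 (0.22). Some of these neighbours passed the filter's minimum of 4 through part of the groups only. Trib2, Kel and Epor (3.72 in T2F3 MPP and 3.60 in T2F3 GMP) had both T2F3 means under it. Emcn (3.24 in T2F3 GMP and 3.27 in WT GMP) and Kcnh2 (3.58 and 3.39) had both GMP means under it. At such low values the shrinkage of the table limits what their nearness could show. Zfpm1 was nearest to Cavin1 and Mdga1 (0.23 each), and Gfi1b to Dmwd (0.27). Gata1 and Gata3 were the farthest apart of the 45 member pairs, at 1.34.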

How the data were processed

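The deposited table, whose name marks it as regularized log data, holds the authors' log2 values for 24424 genes in 15 RNA-seq libraries. Per the labels' protocols, libraries came from a kit for stranded mRNA. Per the submitters' processing notes, STAR, Bowtie, HOMER, DESeq2 and mm9 were used, without versions or roles. The remaining 41 of the 56 samples, which measured hydroxymethylcytosine or input DNA, were not analysed here. Entrez IDs were named from the RefSeq table of GRCm38.p6 (24345 matched), and columns were mapped by genotype, number and population.

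A limma model (version 3.58.1, R 4.3.3; trend and robust moderation) gave each group its own mean, over all 15 libraries and the 12133 genes averaging 4 or more. Its two-sided p-values were adjusted by Benjamini and Hochberg's method over all genes tested, at a threshold of 0.05. The model was tested on simulated data. The table gives no depth. Balances of 2 genes were tested by exact permutation. Tables were handled with pandas 2.3.3 in Python 3.11.15, exact permutations were enumerated with NumPy 2.4.6, and plots were drawn with Matplotlib 3.10.9.

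The members, lists and tests were chosen with earlier results of these data known. The promoter motifs were chosen after the values were seen. Named genes were all 10 members, at most 3 genes of a list with the smallest p, and the 3 nearest profiles of a member, without predicted genes. Alternatives were other filters, a pseudocount of 8, other scalings, other moderation, weights, the compared groups alone, replicate blocks, a ribosomal covariate and libraries left out. The ribosomal covariate, the mean of ribosomal protein genes in a library, is confounded with genotype in MPP, where it lay apart between T2F3 and WT.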

Additional observations from a re-analysis of the deposited data

Results flagged for a closer look

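In WT GMP 2, Zfpm1 (8.56), Klf1 (6.44) and Gfi1b (6.80) stood far above the other 4 WT GMP libraries, whose values ran from 7.87 to 8.06, from 5.68 to 5.89 and from 6.03 to 6.21. Each gap was wider than Dixon's test allows at 95% confidence. The test was applied to 20 groups of 4 or 5 libraries, of which 3 exceeded the limit, and chance exceeds it in about 1 of 20. All 3 were in the same library, and the cause was not tested.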

How the results depend on the processing

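Of 1330 single-gene values under the alternatives, 1279 kept their direction and side of the threshold, 15 lost the call, 24 gained it and 12 turned sign; the cause was not tested. The members called lower numbered 8 to 9 in T2F3 MPP, 6 in T2F3 GMP, 4 to 6 in the T2F3 step and 8 to 9 in the WT step when 1 library was left out. For the difference of the genotype effects, 0 members were called higher, against 1 with median centring, quantile normalization, the replicate block as animal or without both WT GMP 1 and T2F3 GMP 2, 2 with the replicate block or the ribosomal covariate, 4 with array weights, and 0 to 2 with 1 library left out.

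Counts over all genes moved more. In MPP, 2506 were higher and 2383 lower, against 3951 and 3844 with array weights, 1387 and 1345 with the replicate block, and 1462 to 3157 and 1397 to 2832 with 1 library left out. In GMP, 1122 were higher and 733 lower, against 2043 and 2060 with array weights, 854 to 1918 and 320 to 1841 with 1 library left out, and 339 lower with these groups alone, 384 with the replicate block and 1339 with the ribosomal covariate. For the difference of the effects, 167 were higher and 107 lower, against 89 and 51 with a minimum mean of 6, 720 and 774 with array weights, 399 and 805 without both libraries, 445 and 547 with the ribosomal covariate, 44 to 358 and 35 to 228 with 1 library left out, and 186 lower with no filter and 161 with the replicate block as animal. In the T2F3 step, 1272 were higher and 1418 lower, against 2126 and 2263 with array weights, 1948 higher without both libraries, 2177 higher with the ribosomal covariate and 908 lower with a minimum mean of 6. Median centring made 40.2% of MPP calls higher, against 51.3%, 74.5% of calls on the difference of the effects, against 60.9%, and 42.2% of WT step calls, against 52.2%.

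With a pseudocount of 8, Gata2 minus Gata1 in GMP (-0.61), Spi1 minus Gata1 in MPP (2.47) and in GMP (1.33) passed, each at an exact permutation adjusted p of 0.0476; with 1 library left out the ranges were -0.54 to -0.38, 2.63 to 2.91 and 1.44 to 1.67, and 0.50 to 0.90 for Gata2 minus Gata1 in MPP. Values near 0 turned sign, and with 1 library left out these ran from -0.15 to 0.18 (Gata3, GMP), -0.19 to 0.01 (Nfe2, MPP), -0.06 to 0.30 (Tal1, difference of effects) and, in the T2F3 step, -0.17 to 0.0001 (Klf1) and -0.01 to 0.19 (Nfe2). Gata3 in GMP became -0.04 with quantile normalization, -0.17 with array weights, -0.15 without T2F3 GMP 2, -0.04 without WT GMP 3, -0.16 without both libraries and -0.02 with the ribosomal covariate. Nfe2 in MPP became 0.01 and the Tal1 difference of effects -0.06 without T2F3 MPP 2. In the T2F3 step, Klf1 became 0.13 with quantile normalization and 0.0001 without T2F3 GMP 1, and Nfe2 -0.06 with quantile normalization and -0.01 without T2F3 MPP 2.

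Deviations of same-numbered MPP and GMP libraries of 1 genotype correlated from 0.055 to 0.464, over 0.1 in 5 of 7 pairs. Of the 14 libraries with such a partner, 9 correlated best with it among 3 to 5 candidates, a hint of pairing that the labels do not state. Same-numbered libraries of different genotypes correlated from -0.071 to 0.076 between MPP and GMP, and from -0.326 to 0.517 within a population. With the replicate block, Gata1 (0.89, adjusted p = 0.0364) and Klf1 (0.94, adjusted p = 0.0233) passed for the difference of the effects in limma, and with the replicate block as animal Klf1 did (0.87, adjusted p = 0.0391). The difference of the effects could not be fitted with the compared groups alone, since it uses all 4. Depth is unknown, and shrinkage limits what low genes can show.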
